A study of Mus musculus with 11 samples.

Results

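The 10 genes described here encode proteins of the tight junction: the claudins Cldn1, Cldn2, Cldn3, Cldn4, Cldn7, Cldn10, Cldn12 and Cldn23, the junctional membrane protein occludin (Ocln) and the scaffold protein ZO-1 (Tjp1). They were picked by symbol, with earlier results of these data known, from a count table of 54532 genes. Of the 10, 9 passed the filter on low counts that left 14113 genes for testing, and Cldn1 did not. Which comparisons guided the choice is not recorded. The responses to caerulein were taken to have done so and are given for the members as descriptions without p-values. The p-values of the members between the ages are printed, but they are not independent of a choice made with results known.

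Whole pancreas of C57BL/6JRj mice was profiled by poly(A) RNA sequencing, with 1 library per mouse according to the labels. Young mice were 7 weeks old and aged mice 18 months old. Untreated mice (3 young, 2 aged, labelled not treated with no sham injection mentioned) were compared with mice given 4 hourly intraperitoneal injections of caerulein at 125 µg/kg body weight (3 young, 3 aged). Caerulein is an analogue of the hormone cholecystokinin that overstimulates the enzyme-secreting acinar cells and is a standard way to start acute pancreatitis in mice. The treated mice carry the time label 5H. The submitters' text places sampling relative to the first injection under that same label, so the exact interval is not settled here. No transgene or Cre was named for any group, so the same inbred strain stands behind all 4 groups, and the sexes were not given.

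Tight junctions close the gap between neighbouring epithelial cells near the lumen. In the exocrine pancreas they keep digestive enzymes, secreted into the acinar lumen and the ducts, apart from the tissue space around the cells. Claudins form the strands of the junction: some, such as Cldn3 and Cldn4, are known mainly as sealing proteins, whereas Cldn2 and Cldn10 form pores for ions. Occludin joins the same strands, and ZO-1 ties claudins and occludin to the actin cytoskeleton.

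Total counts ran from 14223190 to 26537091 per library. Levels are given as CPM, read counts relative to the library total after scaling by edgeR's trimmed mean of M values, or, where genes are compared with each other, as the deposited FPKM, which also divides by gene length. Sums of cell type markers, here and below, are instead CPM of the unscaled library totals. Acinar markers dominated every library, and the sum of 15 of them differed with treatment, at 491800 to 549300 CPM in untreated and 399800 to 420100 CPM in treated mice. With TMM scaling, the median log2 fold change of these 15 genes was -0.90 in young and -0.99 in aged mice. The part of this acinar difference in the members' changes was not tested. The library of young untreated mouse 2 stood apart: its lymphoid markers summed to 301.1 CPM, against at most 3.304 CPM in any other library, and its adipocyte and myeloid markers were also the highest. In bulk tissue, fewer cells of a type and less RNA per cell cannot be told apart.

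Cldn4 changed more than any other tested tight junction gene at both ages, and its level after caerulein was lower in aged mice. Its product is a sealing claudin. In untreated young mice Cldn4 was close to the limit of detection, at 1.01, 0.679 and 1.04 CPM in mice 1 to 3, from 17 or 18 reads a library. The 2 untreated aged mice had 0.588 and 2.06 CPM, from 7 and 38 reads. After caerulein the young mice reached 413, 400 and 215 CPM and the aged mice 37.6, 62.1 and 33.6 CPM. No treated library overlapped an untreated one, and all 3 treated aged mice lay below all 3 treated young mice. The log2 fold change after caerulein was 8.58 ± 0.48 (SE) in young mice, a 382-fold difference, and 4.96 ± 0.51 in aged mice, a 31.2-fold difference. Neither fold should be read more finely than the few untreated reads allow.

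The promoter of Cldn4 is shown because this gene moved most and because a letter search set it apart from the other members. RefSeq windows of GRCm38.p6, from 250 bases before an annotated transcript start to 50 bases after it, were available for 9 of the 10 genes, 14 windows in all. They were searched on both strands for 7 motifs. The windows of the neighbouring gene Cldn3 and of Cldn7, both sealing claudins that also rose, are printed for comparison. Capitals mark matches to the motifs other than the GC box, and the Cldn4 window is chr5:134946885-134947184 on the minus strand, the Cldn3 window chr5:134985964-134986263 on the plus strand, and the Cldn7 window, at the second of its annotated starts, chr11:69965171-69965470 on the plus strand.
Cldn4: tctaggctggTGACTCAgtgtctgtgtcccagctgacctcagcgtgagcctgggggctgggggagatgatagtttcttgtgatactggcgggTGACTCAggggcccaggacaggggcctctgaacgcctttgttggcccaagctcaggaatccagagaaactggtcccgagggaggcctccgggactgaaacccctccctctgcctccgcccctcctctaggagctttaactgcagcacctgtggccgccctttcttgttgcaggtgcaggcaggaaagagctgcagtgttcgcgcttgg
Cldn3: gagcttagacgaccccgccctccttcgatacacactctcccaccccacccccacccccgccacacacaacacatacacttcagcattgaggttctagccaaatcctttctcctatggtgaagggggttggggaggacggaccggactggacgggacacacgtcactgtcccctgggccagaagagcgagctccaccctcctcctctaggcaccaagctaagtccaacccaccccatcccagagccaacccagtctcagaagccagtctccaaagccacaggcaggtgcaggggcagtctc
Cldn7: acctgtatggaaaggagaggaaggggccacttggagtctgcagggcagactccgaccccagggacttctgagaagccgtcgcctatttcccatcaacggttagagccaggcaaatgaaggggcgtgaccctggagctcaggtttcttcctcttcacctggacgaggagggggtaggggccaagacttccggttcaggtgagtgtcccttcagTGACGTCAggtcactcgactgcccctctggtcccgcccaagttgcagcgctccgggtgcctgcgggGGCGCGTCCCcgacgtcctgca

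The Cldn4 window holds 2 copies of TGACTCA, a match to the AP-1 motif TGANTCA, which reads the same on both strands. They lie at -240 to -234 and -158 to -152, counted from the annotated start as position 0. No other member's window holds this motif. Of all 32851 promoter windows of the same length, 7.81% hold at least 1 AP-1 match and 0.46% hold at least 2. The printed Cldn7 window holds the cyclic AMP response element TGACGTCA, found in 1.79% of all windows, and an NF-kB match (20.7% of windows). The Cldn3 window holds no match but a GC box. The GC box GGGCGG was found in 8 of the 9 genes with a window and in 35.7% of all windows. The Cldn2 window holds a TATA box (TATAAA, 13.6% of windows) and a heat shock element core (GAANNTTC, 7.86%). The Grainyhead-like core AACNNGTT, in 4.2% of all windows, was found in no member's window. These matches describe letters, not bound sites.

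Cldn3 had the highest FPKM of the claudins before treatment and rose after caerulein at both ages, to a lower level in aged mice. It seals the junction and lies beside Cldn4 on chromosome 5 (mm10, 134986214 to 134987472, plus strand; Cldn4 is at 134945119 to 134946934, minus strand). Untreated young mice had 29.1, 17.4 and 25.3 CPM and untreated aged mice 25.0 and 27.2 CPM. After caerulein the values were 114, 109 and 88.2 CPM in young mice and 55.8, 61.6 and 44.4 CPM in aged mice. The treated groups did not overlap with the untreated groups or with each other. The log2 fold changes were 2.12 ± 0.20 in young and 1.05 ± 0.22 in aged mice.

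Cldn7, a claudin of the basolateral as well as the junctional membrane in many epithelia, followed the same order of groups with tighter values. It lay at 7.76, 5.76 and 9.78 CPM in untreated young mice and at 8.07 and 9.91 CPM in untreated aged mice. Treated young mice had 88.0, 82.8 and 84.5 CPM, and treated aged mice 51.8, 51.4 and 53.1 CPM. Within each treated group the 3 libraries were nearly equal, and the aged group lay wholly below the young group. The response was 3.46 ± 0.18 on the log2 scale in young mice and 2.53 ± 0.20 in aged mice.

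Cldn1, a barrier claudin best known from skin, was hardly detected. It had 0, 27 and 4 reads in the untreated young mice, 1 and 0 in the untreated aged mice, 3, 8 and 6 in the treated young mice and 0, 2 and 3 in the treated aged mice. The highest count came from young untreated mouse 2, the library with the lymphoid and adipocyte markers. The part of those other cells in the Cldn1 reads was not tested. The groups overlapped, and no fold change is given.

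**Figure D1:**
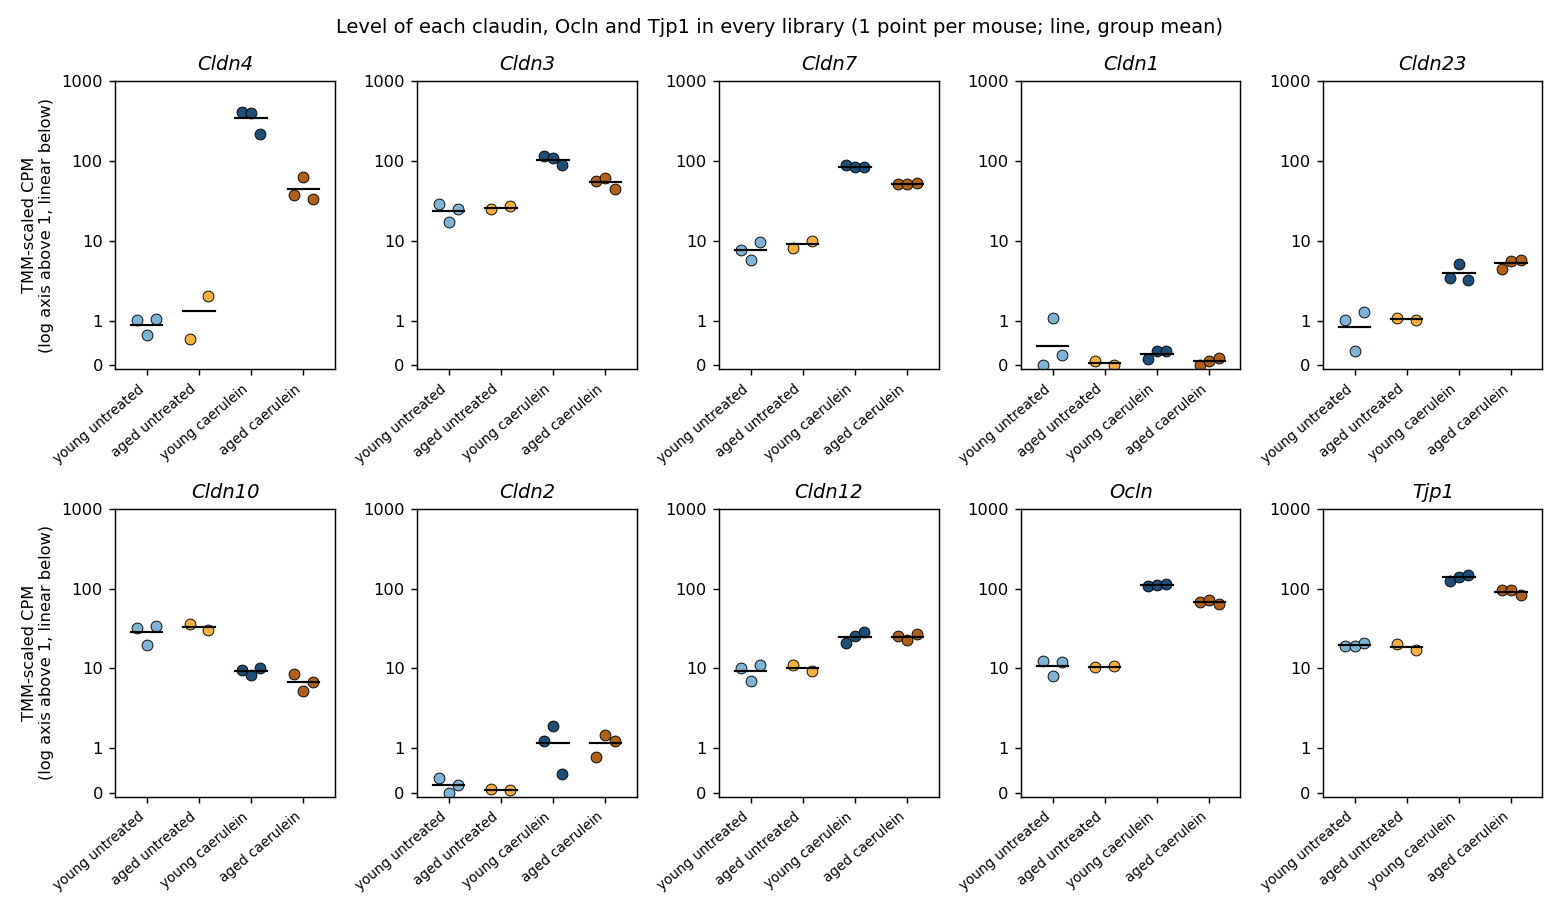
Level of each of the 10 genes in every library, with TMM-scaled CPM on the vertical axis (logarithmic above 1, linear below) and the 4 groups on the horizontal axis; points are single mice and lines are group means. Cldn4 spans from 0.588 CPM to 413 CPM, Cldn10 is the 1 gene whose treated libraries all lie below the untreated ones, and Cldn3, Cldn4, Cldn7, Ocln and Tjp1 lie lower in treated aged than in treated young mice.

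Cldn10, which forms ion pores, was the member that fell. Untreated young mice had 32.0, 19.5 and 34.5 CPM, and untreated aged mice 36.6 and 30.1 CPM. After caerulein it lay at 9.498, 8.38 and 10.1 CPM in young mice and at 8.51, 5.17 and 6.83 CPM in aged mice. Every treated library was below every untreated one, and the treated groups overlapped with each other. The fitted change was -1.62 ± 0.23 in young and -2.28 ± 0.25 in aged mice on the log2 scale. RefSeq gives more than 1 start for Cldn10, but counts per gene cannot separate transcripts from them.

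Cldn2, the cation and water pore, stayed low although its fitted change was upward. Untreated libraries held 6, 0 and 3 reads in young mice and 1 read in each aged mouse. Treated young mice had 28, 48 and 8 reads, and treated aged mice 21, 30 and 22 reads. In CPM the treated libraries ranged from 0.416 to 1.90, above the untreated range of 0 to 0.337. The log2 fold change was 2.85 ± 0.84 in young mice. In aged mice the counts gave a ratio of 17.1 with an exact 95% interval of 4.57 to 144, which covers counting error only. The call in young mice was lost without the library of young treated mouse 2 (log2 fold change 2.32) and with the mouse number as a block in a fit of the young groups (2.80), and the call in aged mice without untreated aged mouse 2 (4.29) or mouse 3 (3.71).

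Cldn12 and Cldn23 rose at both ages. Cldn12, a claudin without the usual PDZ-binding end, went from between 6.95 and 11.1 CPM in untreated young mice and 9.26 and 11.01 CPM in untreated aged mice to between 20.9 and 28.4 CPM in treated young and between 22.9 and 26.8 CPM in treated aged mice. Its log2 fold changes were 1.42 ± 0.18 in young and 1.31 ± 0.21 in aged mice. Cldn23, a claudin of the less typical branch of the family, ran from 0.320 to 1.27 CPM in untreated mice of both ages and from 3.22 to 5.72 CPM in treated mice. Its log2 fold changes were 2.22 ± 0.41 in young and 2.31 ± 0.48 in aged mice. For both genes the treated young and treated aged mice overlapped.

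Ocln, the membrane partner of the claudins, rose about as strongly as Cldn7. Its values were 12.4, 7.99 and 12.1 CPM in untreated young and 10.4 and 10.6 CPM in untreated aged mice. Treatment was followed by 108, 111 and 115 CPM in young and 68.1, 72.4 and 64.6 CPM in aged mice. The treated aged libraries sat between the untreated and the treated young ones with no overlap on either side. The response was 3.36 ± 0.16 in young and 2.70 ± 0.19 in aged mice on the log2 scale.

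Tjp1, the scaffold, had the smallest standard errors of all members. It lay at 19.1, 19.3 and 20.7 CPM in untreated young mice and at 20.0 and 17.0 CPM in untreated aged mice. The treated young mice had 124, 141 and 150 CPM, and the treated aged mice 95.6, 94.7 and 83.5 CPM. Again the 3 levels, untreated, treated aged and treated young, did not overlap. The fitted responses were 2.81 ± 0.13 and 2.31 ± 0.15 on the log2 scale in young and aged mice.

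In all, 8 of the 9 tested members were called higher and 1 lower after caerulein in young mice, and the same counts, 8 and 1, held in aged mice. A call means that edgeR's quasi-likelihood test gave a p below 0.05 after Benjamini-Hochberg adjustment over all 14113 genes. Among all genes tested, 27.5% were called higher and 24.7% lower in young mice, and 27.0% and 21.2% in aged mice. Because the members may have been chosen on these contrasts, nothing is read from that difference. The members' median log2 fold change was 2.81 in young and 2.31 in aged mice, against -0.06 and 0.07 over all genes. With libraries scaled by their totals, the median over all genes shifted by 0.50 in young and 0.61 in aged mice; under that scaling the members' directions and calls after caerulein were the same. The counts were also 8 and 1 at both ages without the library of young untreated mouse 2.

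Before treatment, no member was called between the ages. All 9 tested members missed the adjusted threshold between untreated aged and untreated young mice, and the ranges of the untreated groups overlapped for all 10 genes. Over all genes, 0.0921% were called in either direction in this comparison, and 23.2% had groups that did not overlap. With 2 libraries in the aged group, differences of the size of the spread in these genes would not be detectable.

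After caerulein, 5 of the 9 tested members were lower in aged than in young mice, and none was higher. In this comparison 1.27% of all tested genes were called lower and 2.46% higher. The members were chosen with earlier results known, and this comparison may have been among them. Nothing is therefore read from the distance to these shares, and the adjusted p-values below are not independent of that choice. Cldn4 differed most, by -2.95 ± 0.35 on the log2 scale or 7.71-fold (adjusted p = 0.00192, edgeR's quasi-likelihood test). Cldn3 differed by -0.94 ± 0.19 (adjusted p = 0.0216) and Cldn7 by -0.71 ± 0.16 (adjusted p = 0.0327) in the same test. Ocln was lower by a log2 change of -0.70 ± 0.15 (adjusted p = 0.0265) and Tjp1 by -0.60 ± 0.12 (adjusted p = 0.0178). For each of these 5 genes the 3 aged libraries lay below the 3 young ones, which was true of 13.6% of all tested genes. Cldn10, at -0.44 ± 0.23, and Cldn23, at 0.42 ± 0.37, were not called (adjusted p = 0.351 and 0.616), and Cldn2 and Cldn12 had overlapping ranges.

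The Cldn4 difference was called whichever of the 11 libraries was left out, with an adjusted p of at most 0.0144. The other 4 kept their direction in all 11 such fits, but Cldn3 was called in 4 of them, Cldn7 in 3, Ocln in 3 and Tjp1 in 6, with adjusted p up to 0.0918, 0.119, 0.105 and 0.0897. Leaving out any 1 of the treated aged mice left 1 of the 5 genes called, and leaving out young treated mouse 2 left 1. Without young treated mouse 1 or 3 the count was 2, and without either untreated aged mouse it was 2. All 5 were called without any 1 of the young untreated mice. Over all genes, those called lower ran from 60 to 856 in the same fits. The log2 differences ran from -1.05 to -0.82 for Cldn3, -0.73 to -0.68 for Cldn7, -0.74 to -0.66 for Ocln and -0.67 to -0.54 for Tjp1.

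The difference between both responses is built from the contrasts that may have guided the choice of genes, so it is given as a description. It was -3.61 ± 0.67 on the log2 scale for Cldn4, -1.07 ± 0.29 for Cldn3 and -0.93 ± 0.25 for Cldn7. Ocln, at -0.66 ± 0.23, and Tjp1, at -0.50 ± 0.18, had smaller differences in the same direction. Of the 9 members, 0 were called in the edgeR fit, as against 0.0142% of all genes in either direction. That count was 3 without the library of young untreated mouse 2 and 3 with DESeq2. It was 3 of 10 tested with no filter and 1 of 8 with the stricter filter. It thus depends on 1 library, on the tool and on the filter. Over all genes, DESeq2 called 179 higher and 100 lower, no filter 547 and 127, and the stricter filter 32 and 26. With 1 library left out, all genes ran from 0 to 201 higher and from 0 to 110 lower. Without young untreated mouse 2 the differences were -3.46 for Cldn4, -0.90 for Cldn3 and -0.77 for Cldn7. The size for Cldn4 depended more on the untreated aged mice, with 7 reads in mouse 2 and 38 in mouse 3. It was -4.16 without mouse 2 and -2.35 without mouse 3.

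**Figure D2:**
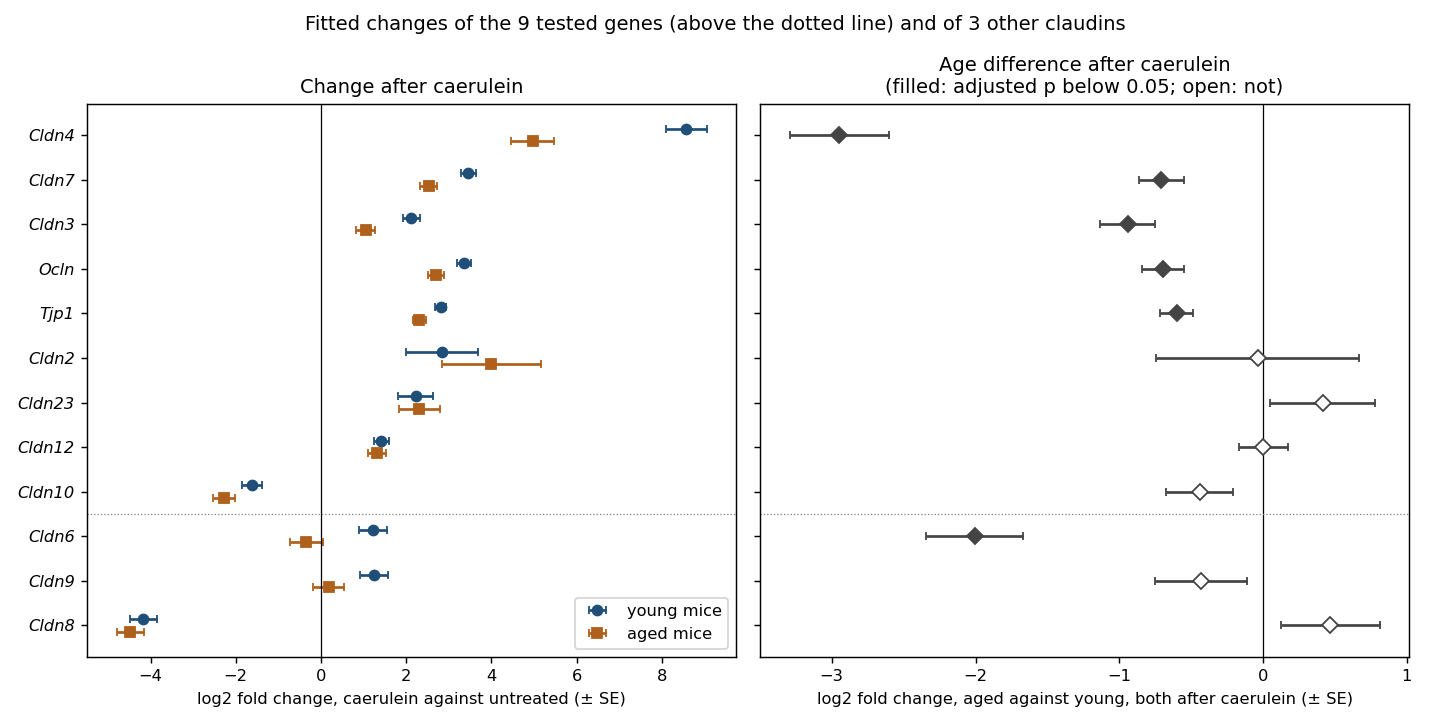
Fitted log2 fold changes with standard errors for the 9 tested genes and, below the dotted line, 3 other claudins; the left panel shows caerulein against untreated in young mice (circles) and aged mice (squares), the right panel aged against young mice after caerulein, filled where the adjusted p was below 0.05. Cldn4 stands farthest right on the left panel, at 8.58 and 4.96, and farthest left on the right panel, at -2.95, while Cldn8 and Cldn10 lie left of 0 at both ages.

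Per unit length, caerulein reordered the claudins. In untreated young mice Cldn3 had the highest FPKM of the 10 genes (13.6 to 23.1), followed by Cldn10 (7.44 to 13.5) and Cldn7 (2.92 to 5.10), with no overlap between these 3. Ocln, whose range overlapped with that of Cldn7, Tjp1 and Cldn12 came next, and Cldn4 stood seventh at 0.370 to 0.579 FPKM, not separable from Cldn23. The untreated aged mice had the same first 4 genes in the same order. In treated young mice Cldn4 came first at 116 to 221 FPKM, ahead of Cldn3 (68.6 to 88.0), Cldn7 (41.4 to 43.9), Ocln and Tjp1, and none of these overlapped with the next. In treated aged mice Cldn3 was still first (34.4 to 48.1 FPKM), and Cldn7 (25.8 to 26.6) and Cldn4 (18.1 to 33.7) shared the next places with overlapping ranges. Cldn10 fell to seventh place in treated young and eighth in treated aged mice. TMM-scaled counts per kilobase gave the same order in all 40 places.

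The summed FPKM of all 33 claudins in the table shows how far Cldn4 carried the total. The sum was 37.1 to 55.1 in untreated young, 54.0 to 58.8 in untreated aged, 249 to 376 in treated young and 97.6 to 126 in treated aged mice. Cldn4 made up 1.02% ± 0.031 (SD, n = 3) of the sum in untreated young and 54.9% ± 7.12 in treated young mice. In aged mice its share was 1.33% ± 1.09 (SD, n = 2) untreated and 21.3% ± 4.76 (SD, n = 3) treated. Cldn10 went from 22.4% ± 2.29 to 1.12% ± 0.36 in young and from 23.0% ± 2.00 to 2.38% ± 0.73 in aged mice. Cldn3 held 38.6% ± 2.95 before and 24.7% ± 2.48 after treatment in young mice, and 37.2% ± 4.14 and 37.8% ± 2.33 in aged mice. Shares add to a fixed whole, so the share of 1 claudin falls where another rises even at a constant level.

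**Figure D3:**
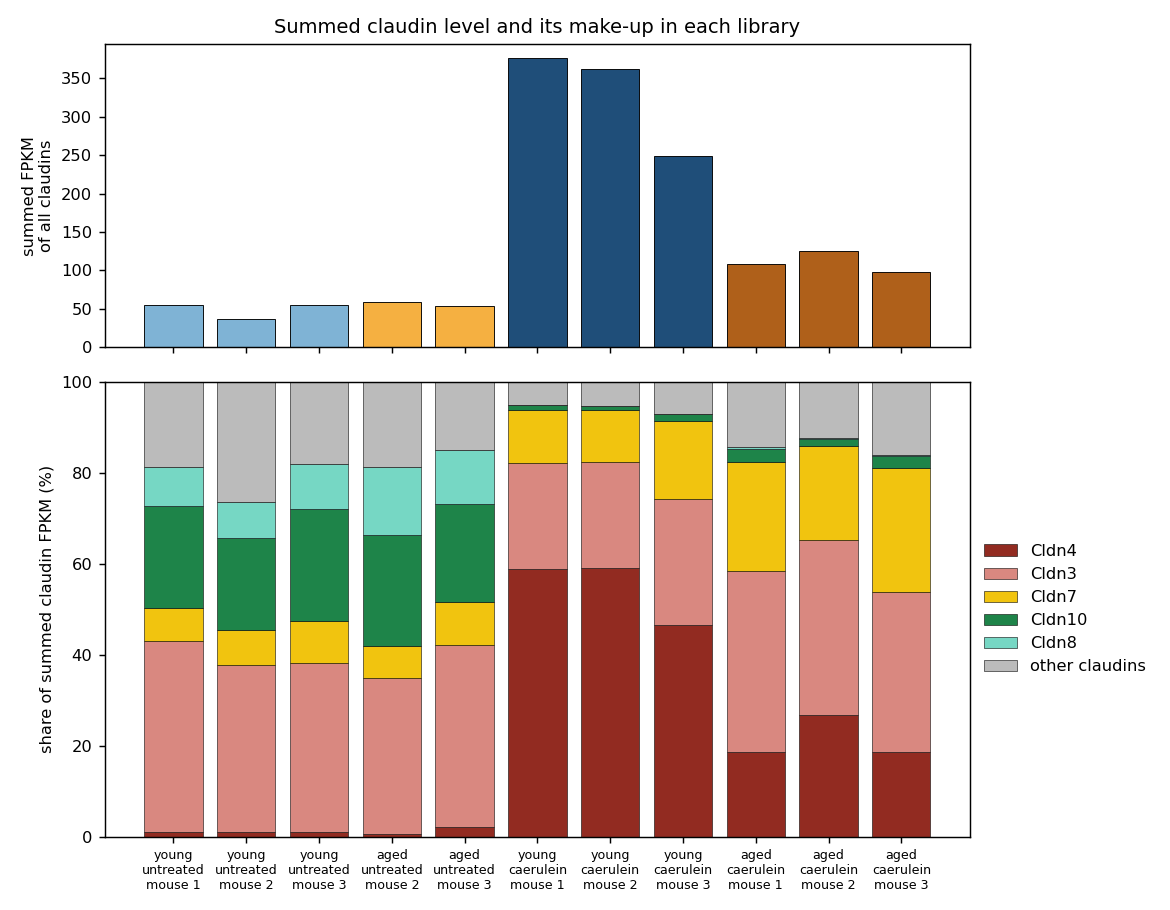
Upper panel, summed FPKM of the 33 claudins in each library; lower panel, the percentage of that sum from Cldn4, Cldn3, Cldn7, Cldn10, Cldn8 and the remaining claudins, with 1 bar per mouse. Cldn4 takes 46.6% to 59.2% of the sum in treated young mice and 18.5% to 26.8% in treated aged mice, while Cldn10 and Cldn8 are almost absent from the treated bars.

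Of the list of other claudins, 6 were tested, 5 claudins and the claudin domain gene Cldnd1, and Cldn8 fell furthest. Cldn8, which in the mouse kidney works together with Cldn4 in a paracellular chloride path, had 11.2, 7.15 and 12.5 CPM in untreated young and 20.3 and 15.0 CPM in untreated aged mice. It had 0.479, 0.553 and 0.676 CPM in treated young and 1.07, 0.682 and 0.555 CPM in treated aged mice. The treated libraries were all far below the untreated ones. The log2 fold change was -4.17 ± 0.31 in young (adjusted p = 1.14e-06) and -4.48 ± 0.31 in aged mice (adjusted p = 1.09e-06). Cldn6, a claudin of embryonic epithelia, rose in young mice (1.23 ± 0.33, adjusted p = 0.00905), was -0.34 ± 0.39 in aged mice (adjusted p = 0.508), and after caerulein was lower in aged mice by -2.01 ± 0.34 (adjusted p = 0.00931, edgeR). Its levels were low throughout, with 3.74 to 4.88 CPM in treated young and 0.611 to 1.51 CPM in treated aged mice, and the difference between its responses was not called (adjusted p = 0.262). Cldn9 rose in young mice (1.24 ± 0.33, adjusted p = 0.00855) and was 0.18 ± 0.37 in aged mice (adjusted p = 0.72). Cldnd1 rose by 1.14 ± 0.14 in young and 1.86 ± 0.16 in aged mice (adjusted p = 4.05e-05 and 5.21e-06). The endothelial claudin Cldn5 had 153 reads in young untreated mouse 2 and at most 21 elsewhere, and was not called.

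Of the other 59 tested tight junction genes (these claudins, other membrane proteins and scaffolds, from lists drawn up with earlier results of these data known), 30 were called higher and 6 lower in young mice, and 27 higher and 7 lower in aged mice, beside 27.5% higher and 24.7% lower over all genes in young and 27.0% and 21.2% in aged mice. The genes called at both ages numbered 26 higher and 4 lower (Cldn8, Cgnl1, Pard3b and Prkci), and none was called in opposite directions. Cxadr, the coxsackievirus and adenovirus receptor, which sits at the junction, rose by 4.12 ± 0.17 in young and 2.79 ± 0.20 in aged mice (adjusted p = 2.98e-08 and 1.06e-06). It was lower in treated aged mice (101.6 to 145.7 CPM) than in treated young mice (290.3 to 309.1 CPM) by -1.29 ± 0.16 (adjusted p = 0.00203).

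The polarity proteins Pard6b (3.02 ± 0.18 and 3.11 ± 0.22 in young and aged mice) and Crb3 (2.75 ± 0.20 and 2.62 ± 0.23) rose at both ages. Arhgef2, a guanine nucleotide exchange factor held at the junction, rose by 2.20 ± 0.15 and 2.67 ± 0.18, and the claudin-family relatives Emp1 and Emp2 by 2.08 ± 0.20 and 2.91 ± 0.20 in young and 2.48 ± 0.24 and 2.35 ± 0.23 in aged mice. F11r, the junctional adhesion molecule A, rose by 2.42 ± 0.13 and 1.82 ± 0.15. The adjusted p of these 6 genes in edgeR's test was at most 1.19e-05 at either age. After caerulein, 4 of the 59 were lower in aged mice and none higher: Cxadr, Cldn6, the cytoplasmic plaque protein cingulin (Cgn, -0.92 ± 0.22, adjusted p = 0.0437) and the angiomotin-like scaffold Amotl2 (-0.81 ± 0.16, adjusted p = 0.0189). Over all genes tested, 1.27% were lower and 2.46% higher in this comparison. Cgn was 0.23 ± 0.22 in young mice after caerulein (adjusted p = 0.399) and fell by 0.91 in aged mice (SE 0.24, adjusted p = 0.00936), a call that was lost under scaling by library totals (-0.30) and without either untreated aged mouse (-0.91 without mouse 2, -0.87 without mouse 3). With 1 of the 11 libraries left out, the age difference of Cgn was called in 3 fits (adjusted p up to 0.162) and that of Amotl2 in 7 (up to 0.084), whereas those of Cxadr and Cldn6 were called in all 11.

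**Figure D4:**
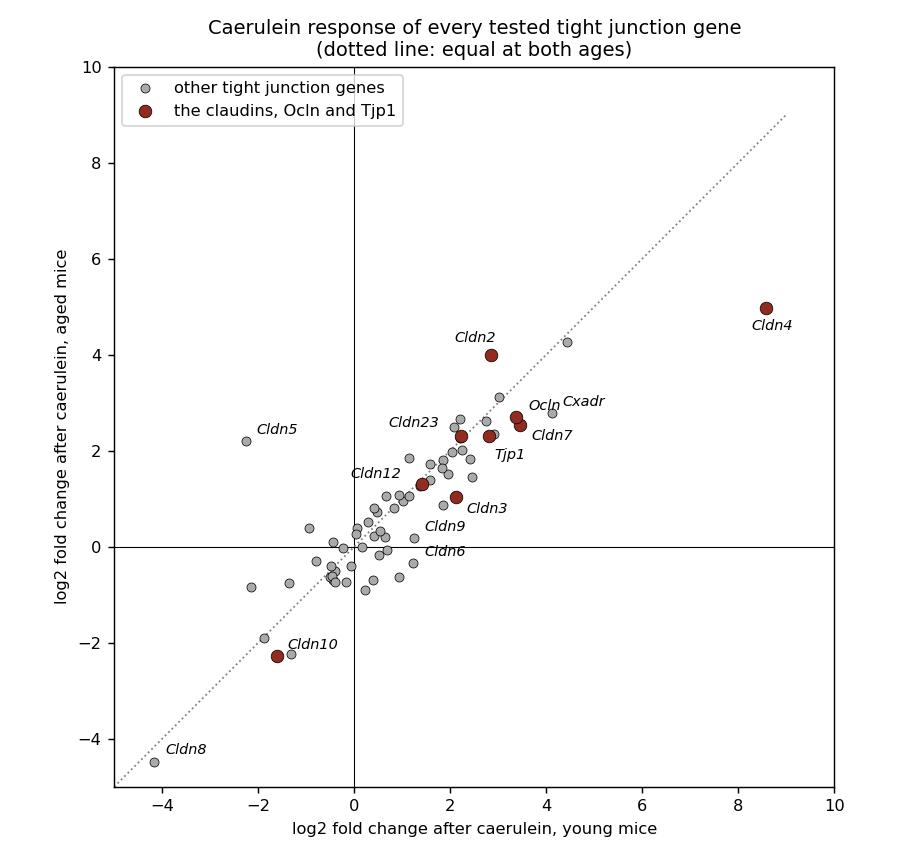
Log2 fold change after caerulein in young mice (horizontal axis) and aged mice (vertical axis) for the 9 tested members (large points) and the 59 other tested tight junction genes (small points); the dotted line marks equal change. Cldn4 lies well below the line at 8.58 and 4.96, and Cldn8 is at the lower left.

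Genes that act on or beside claudins were described by the same lists. Over all genes tested, 27.5% were called higher and 24.7% lower in young mice, and 27.0% and 21.2% in aged mice. Of 12 tested claudin partners and membrane proteases, 6 were higher and 2 lower in young mice and 6 higher and 1 lower in aged mice. They include Epcam, which binds and stabilises Cldn7 in intestinal epithelium (2.61 ± 0.26 in young, 2.88 ± 0.31 in aged mice), the protease matriptase (St14, 2.91 ± 0.18 and 2.64 ± 0.21), which cleaves Epcam, and the ephrin receptor Epha2 (3.97 ± 0.38 and 5.68 ± 0.52). The adjusted p of these 3 in edgeR's test was at most 2.1e-05. Spint1, an inhibitor of matriptase, rose by 1.56 ± 0.18 in young and 0.68 ± 0.20 in aged mice (adjusted p = 3.34e-05 and 0.0165) and was lower in treated aged mice by -0.74 ± 0.18 (adjusted p = 0.0453). That age call held in 3 of the 11 fits without 1 library (adjusted p up to 0.157) and was lost with DESeq2 size factors (0.0522) and with the mouse number as block (0.072), and the rise in aged mice lost its call without untreated aged mouse 2 (0.73) or 3 (0.67).

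Of 27 tested transcription factors linked to junction genes, 14 were higher and 3 lower in young mice, and 16 higher and 2 lower in aged mice. Over all genes tested, 27.5% were higher and 24.7% lower in young mice, and 27.0% and 21.2% in aged mice. Fosl1, a subunit of AP-1, went from 0.454 ± 0.145 CPM to 38.7 ± 9.23 CPM in young mice (SD, n = 3 each) and from 0.261 ± 0.013 CPM (n = 2) to 63.8 ± 13.4 CPM (n = 3) in aged mice. Grhl1, a Grainyhead-like factor, rose by 4.90 ± 0.25 in young and 3.83 ± 0.29 in aged mice (adjusted p = 8.87e-08 and 1.85e-06). In treated mice 4 of the 27 were higher with age and none lower: Klf4 (1.05 ± 0.14, adjusted p = 0.00308), Hnf4a (1.28 ± 0.17, adjusted p = 0.00308), Klf6 (0.86 ± 0.21, adjusted p = 0.0453) and Gata6 (0.81 ± 0.19, adjusted p = 0.0429). Over all genes tested, 2.46% were higher and 1.27% lower in this comparison. With 1 library left out, Klf4 and Hnf4a were called in all 11 fits, Klf6 in 3 (adjusted p up to 0.19) and Gata6 in 4 (up to 0.149). Scaling by library totals ended the calls of Klf6 (0.307), Gata6 (0.148) and Klf4 (0.092), and the block for mouse number those of Klf6 (0.0787) and Gata6 (0.0594). The age difference of Fosl1 in treated mice was 0.72 ± 0.19 (adjusted p = 0.0655). Against untreated mice, Hnf4a fell in young mice (-1.43 ± 0.17) and was -0.25 ± 0.19 in aged mice. Gata6 was -0.09 ± 0.19 in young and 0.59 ± 0.22 in aged mice, whereas Klf4 and Klf6 rose at both ages.

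The genes with the expression pattern most like that of Cldn4 over the 11 libraries, by Pearson correlation of log2(CPM + 1), were Cxadr (r = 0.993), Sh3bp5l (0.989), Rnf6 (0.988), Erbb3 (0.984) and Spata2 (0.984). The libraries fall into treated and untreated groups, so these values largely follow that split, and they are a description. By Spearman correlation 1 of the 5, Rnf6, was again among the first 5. The age values of Cxadr are given above; for the other 4 no test is given, since they were chosen for following Cldn4 in these same libraries.

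Genes around Cldn4 were looked at within 100000 bases, a choice made after its values were seen. Mettl27, whose annotated end lies 2482 bases from Cldn4, rose in young mice by 1.99 ± 0.30 (adjusted p = 0.000212), was 0.89 ± 0.35 in aged mice (adjusted p = 0.0544) and was lower in treated aged mice by -1.30 ± 0.29 (adjusted p = 0.0319). Abhd11 was not called in young mice (0.15 ± 0.16, adjusted p = 0.46), in aged mice (-0.34 ± 0.18, adjusted p = 0.144) or between treated mice (-0.41 ± 0.16, adjusted p = 0.206). Its overlapping neighbour Abhd11os was lower after caerulein in young (-0.77 ± 0.29, adjusted p = 0.0415) and aged mice (-1.26 ± 0.31, adjusted p = 0.00584). Stx1a was 0.84 ± 0.49 in young mice (adjusted p = 0.175) and rose in aged mice (1.60 ± 0.60, adjusted p = 0.0454), and neither Abhd11os nor Stx1a was called between treated mice (adjusted p = 0.753 and 0.875). Cldn13 had 1 read in all libraries together. The antisense gene Wbscr25 overlaps the end of Cldn3 and had 12 reads in all. Whether counting used the strand is not given in the sources used here, so reads of overlapping genes cannot be told apart.

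Claudins are abundant in duct cells, so duct markers are given beside these results. All marker sums in this paragraph are CPM of the unscaled library totals. The 20 duct markers summed to 1350 to 1701 CPM in untreated young, 1604 to 1802 CPM in untreated aged, 1179 to 1269 CPM in treated young and 1012 to 1240 CPM in treated aged mice, and none was at 0 in any group. Of 19 tested, 5 were higher and 4 lower in young mice, and 3 higher and 6 lower in aged mice, beside 27.5% and 24.7% of all genes in young and 27.0% and 21.2% in aged mice. Their summed level was lower in every treated library than in any untreated one. Krt19 rose by 3.61 ± 0.39 in young and 3.52 ± 0.47 in aged mice (adjusted p = 2.09e-05 and 0.000105), and in treated mice its age difference was -0.41 ± 0.35 (adjusted p = 0.602). Krt7 rose by 2.54 ± 0.34 and 1.57 ± 0.40 and had an age difference of -1.06 ± 0.32 (adjusted p = 0.0964), whereas Cftr, the chloride channel of duct cells, was not called (1.10 ± 0.61 in young mice, adjusted p = 0.148). Endothelial markers summed to 86.6 to 277.5 CPM, and mesothelial markers to between 1.91 and 31.5 CPM, while islet markers ran from 187 to 2801 CPM within the treated young group alone. Intestinal markers summed to 0.469 to 3.30 CPM in untreated and 3.30 to 8.67 CPM in treated mice. Of these 9 markers, 5 had no reads in each young group and 6 had none in each aged group. Only 2 were tested, and 1 was called at each age: Vil1, an actin bundler of microvilli. It rose by 2.39 ± 0.62 in young and 3.72 ± 0.88 in aged mice (adjusted p = 0.0077 and 0.00477). The part of these cells in the members' changes was not tested.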

How the data were processed

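Whole-pancreas messenger RNA of 11 mice was read as 150-base pairs after poly(A) capture, per the labels' protocols. The authors deposited raw gene counts, made per the submitters' processing notes with HISAT2 2.0.5 and featureCounts 1.5.0-p3 on mm10, and FPKM, which per the deposited values is the count per kilobase and library total times a constant of 0.753 to 1.44 per library. The authors' deposited log2 fold changes were looked at but not used for any result. From the counts, genes passing filterByExpr by group (14113 of 54532) were fitted with edgeR 4.0.16 (R 4.3.3) in 1 quasi-likelihood model of 4 groups with TMM scaling (factors 0.696 to 1.29), p-values being adjusted by Benjamini-Hochberg over all 14113. SE is the log2 fold change divided by the square root of its F. Figures were drawn with matplotlib 3.10.9.

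The members and lists were chosen with earlier results of these data known. Named were the 10 members, in each other list up to 4 genes with the smallest p in a caerulein contrast among those of at least 5 CPM mean in 1 group, any called in an age contrast or in the response difference, and the 5 genes most like Cldn4. 1 of these genes is not reported here. Alternatives were DESeq2 1.42.0, its size factors, library totals, no filter or a stricter one, a fit of the compared groups by themselves, a block for the mouse number, and leaving out each library. Mouse numbers come from the labels and name different animals. In the young groups the deviations of same-numbered libraries from their group means correlated weakly (r = 0.107, 0.156 and 0.116). Young treated mouse 2 and untreated aged mouse 2 reached 0.164, so these values do not show a shared deviation. By the rule of all pairs over 0.1, a block for the number was also fitted in the young groups. It is an alternative to the unpaired model behind all printed values. The other pairs of groups did not meet the rule. No libraries were duplicates (chi-square per degree of freedom 17.1 or more within groups). The scripts were tested on simulated data. A further 74 per-sample columns of the deposited files were not used. The p-values rest on the spread between mice.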

Additional observations from a re-analysis of the deposited data

How the results depend on the processing

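Among the members, 515 of the alternative values kept direction and side of the threshold, 34 kept direction and lost the call and 10 gained it; among the other named genes 1542 kept both and 96 lost the call. None reversed. The cause of each loss was not tested.

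After caerulein, scaling by library totals gave 1269 genes lower in young (3488 in the main fit) and 1074 in aged mice (2998), and among other tight junction genes 3 lower in young and 1 in aged mice; only the aged groups gave 11. With 1 library left out, the genes lower in aged mice ran from 1970 to 3748, and the other tight junction genes lower from 3 to 8 in young and 2 to 11 in aged mice.

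Between untreated groups (8 higher, 5 lower), library totals gave 3 and 0, no filter 72 and 635, DESeq2 36 and 27, only these groups 2 and 0, and the mouse number as replicate block 3 and 0; no filter called 1 other tight junction gene lower. With 1 library left out they ran from 2 to 35 and from 0 to 20.

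Between treated groups (347 higher, 179 lower), library totals gave 99 and 116, DESeq2 590 and 323, only these groups 971 and 715, no filter 307 lower, the stricter filter 307 lower and the replicate block 111 lower. With 1 library left out they ran from 109 to 1065 and 60 to 856, the members called lower from 1 to 5 and the other tight junction genes lower from 2 to 7. Under the replicate block, 4 members were called, Ocln being lost (adjusted p = 0.0558), and under library totals 4, Tjp1 being lost (adjusted p = 0.0733).

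For the response difference (1 higher, 1 lower), library totals gave 0 and 0, no filter 547 and 127, the stricter filter 32 and 26 and DESeq2 179 and 100. Members called lower numbered 3, 1 and 3 with no filter, the stricter filter and DESeq2, and other tight junction genes 3, 1 and 2 lower, with 1 higher under no filter. With 1 library left out, all genes ran from 0 to 201 higher and 0 to 110 lower, members from 0 to 3 and other tight junction genes from 0 to 2 lower. Spearman correlation shared 1 gene with Pearson among the 5 most like Cldn4.

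With the young groups alone and the mouse number as replicate block, Cldn2 (2.80) lost its call, leaving 7 members higher and 1 lower; no other member changed call there. Depth limits Cldn1, Cldn2 and Cldn23 and the untreated level of Cldn4, and 2 untreated aged libraries limit every comparison that uses them.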

Other observations

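Of 18 tested adherens junction genes, 12 were higher and 3 lower in young mice, and 9 higher and 1 lower in aged mice, beside 27.5% higher and 24.7% lower over all genes in young and 27.0% and 21.2% in aged mice. Vinculin (Vcl), which links cadherin complexes and focal contacts to actin, went from 6.05 ± 0.66 to 78.4 ± 4.39 CPM in young mice (SD, n = 3) and from 5.29 ± 0.11 (n = 2) to 80.7 ± 4.42 CPM (n = 3) in aged mice. The actin crosslinker Actn4 rose by 3.13 ± 0.13 and 3.65 ± 0.15 and alpha-catenin (Ctnna1) by 2.20 ± 0.10 and 2.11 ± 0.12 on the log2 scale in young and aged mice, with adjusted p of at most 2.84e-07 in edgeR's test. Ssx2ip fell by 3.50 in young and 3.17 in aged mice (adjusted p = 1.83e-07 and 7.15e-07). After caerulein 1 of the 18, Nectin2, was lower in aged mice (-1.10 ± 0.15, adjusted p = 0.00311), in all fits that left out 1 library. Over all genes tested, 1.27% were lower in this comparison.

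Of 22 tested genes of actomyosin and its control, 16 were higher and 3 lower in young mice and 15 higher and none lower in aged mice, against the same shares over all genes. Gamma-actin (Actg1) went from 70.9 ± 46.7 to 3928 ± 312 CPM in young mice (SD, n = 3) and from 42.7 ± 8.34 (n = 2) to 5451 ± 334 CPM (n = 3) in aged mice. Its age difference in treated mice was 0.47 ± 0.35 on the log2 scale (adjusted p = 0.526). In treated mice, 2 of the 22 were lower with age, beside 1.27% of all genes: the non-muscle myosin heavy chain Myh10 (-0.88 ± 0.16, adjusted p = 0.0126) and the Rac exchange factor Tiam1 (-1.72 ± 0.32, adjusted p = 0.0155). Each was called in 7 of the 11 fits without 1 library (adjusted p up to 0.0622 and 0.0734), and both calls were lost under library totals (0.0707 and 0.0815).

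The authors' deposited table gives log2 fold changes for Cldn4 of 8.56 in young and 5.01 in aged mice after caerulein and -2.97 between treated aged and young mice.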
